A study of Homo sapiens with 2 samples.

Results

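The genes described here are 44 members of the human nuclear receptor family, chosen by symbol from the receptor nomenclature and matched in a RefSeq gene table of GRCh38.p14 with 19974 protein-coding genes outside chromosome Y. All 44 were found. Open chromatin was profiled by ATAC-seq, in which a transposase cuts accessible DNA and adds sequencing adapters at the cut, with an enzyme purified by the submitters. The samples were J76, labelled as an acute T-lymphoblastic leukemia line and known as a subline of Jurkat that lacks the chains of the T cell receptor, and a human embryonic kidney line labelled T293 and called 293T in the protocol and here. The labels give no treatment or genetic change for either line, and each was sequenced as 1 library, so differences are without replication and none was tested. In a bulk library a weak peak and a peak present in fewer cells cannot be told apart.

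Nuclear receptors are transcription factors that carry a zinc finger DNA-binding domain and, in most members, a pocket for a small lipophilic ligand such as a steroid, a retinoid, thyroid hormone, an oxysterol or a fatty acid. Many of the NR1 receptors bind DNA as a pair with a retinoid X receptor (RXR), at direct repeats of a hexamer related to AGGTCA, whereas steroid receptors of NR3 bind mostly as pairs of their own kind. In T cells the glucocorticoid receptor, retinoic acid receptors, the vitamin D receptor and the NR4A receptors are the best known members. The NR2F receptors are best known from mesenchyme, vessels and neurons of the embryo.

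The deposited data were 1 peak list per library, with 58730 J76 and 84951 293T peaks on the autosomes and chromosome X. No read counts came with them, so the depth is unknown and the absence of a peak does not show closed chromatin. Each peak carries the authors' fold enrichment over background and a −log10 q, which were used only within a list. Markers of the labelled cell types mostly had a peak in the line so labelled: 8 of 10 T cell markers had a peak at a gene end in J76 only, CD3D in both lines and CD5 in neither, and 7 of 10 kidney and epithelial markers had one in 293T only, with PAX2 in J76 only and PAX8 and CDH1 in neither. Of markers of other cell types, all 4 B cell genes had none in either line, 2 of 4 myeloid genes had a weak one in 293T only, and of 4 hepatocyte genes TTR had one in J76 only and APOA1 in both.

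Promoter windows of a few receptor genes show the kinds of start that the peaks separated. Each window runs from 250 bases before to 50 bases after an annotated transcription start, read 5′ to 3′ on the gene's own strand, from RefSeq (GRCh38.p14); 39 members had an entry and HNF4G, NR0B2, NR2F6, NR4A2 and VDR did not. RXRG and the pair of RARB starts were covered by a peak in 293T only, the upstream NR3C1 start by a peak in J76 only, the downstream NR3C1 start and PPARD by peaks in both lines, and the annotated NR1H4 start by none. The upstream NR3C1 and downstream RARB windows were chosen after their values were seen. Capitals mark matches on either strand to the motifs searched, which were AGGTCA, the GC box GGGCGG, the E-box CACGTG, the ETS core CCGGAA, the TATA element TATAAA, and direct repeats, with a spacer of 1, 2, 4 or 5 bases, of any pair from the hexamer AGGTCA, its variant starting with a G (GGGTCA), its variant with a T inside (AGTTCA) and the one with both changes (GGTTCA).
RXRG, chr1:165445077-165445376, minus strand: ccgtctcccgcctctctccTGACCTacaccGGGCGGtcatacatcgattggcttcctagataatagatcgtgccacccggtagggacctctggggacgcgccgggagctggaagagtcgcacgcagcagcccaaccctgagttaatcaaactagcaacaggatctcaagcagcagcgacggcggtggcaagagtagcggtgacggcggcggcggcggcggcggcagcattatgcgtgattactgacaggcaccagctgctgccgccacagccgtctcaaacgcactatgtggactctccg
RARB upstream start, chr3:24829071-24829370, plus strand: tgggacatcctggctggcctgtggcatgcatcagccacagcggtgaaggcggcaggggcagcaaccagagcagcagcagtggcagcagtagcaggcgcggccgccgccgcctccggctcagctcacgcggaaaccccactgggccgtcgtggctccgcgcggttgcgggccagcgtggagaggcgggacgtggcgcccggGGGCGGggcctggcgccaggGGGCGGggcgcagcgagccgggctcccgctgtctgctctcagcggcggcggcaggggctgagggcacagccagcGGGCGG
RARB downstream start, chr3:25428013-25428312, plus strand: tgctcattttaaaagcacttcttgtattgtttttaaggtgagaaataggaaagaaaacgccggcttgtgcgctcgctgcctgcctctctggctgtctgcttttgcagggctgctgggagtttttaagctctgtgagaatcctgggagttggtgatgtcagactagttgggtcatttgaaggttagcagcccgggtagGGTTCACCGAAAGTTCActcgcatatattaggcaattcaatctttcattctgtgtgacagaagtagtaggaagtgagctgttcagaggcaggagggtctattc
NR3C1 upstream start, chr5:143435463-143435762, minus strand: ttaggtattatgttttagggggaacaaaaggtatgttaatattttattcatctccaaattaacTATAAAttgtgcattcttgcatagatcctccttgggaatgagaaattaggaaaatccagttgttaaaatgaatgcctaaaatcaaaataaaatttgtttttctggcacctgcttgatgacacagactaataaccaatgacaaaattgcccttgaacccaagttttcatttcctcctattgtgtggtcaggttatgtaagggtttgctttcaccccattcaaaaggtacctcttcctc
NR3C1 downstream start, chr5:143403234-143403533, minus strand: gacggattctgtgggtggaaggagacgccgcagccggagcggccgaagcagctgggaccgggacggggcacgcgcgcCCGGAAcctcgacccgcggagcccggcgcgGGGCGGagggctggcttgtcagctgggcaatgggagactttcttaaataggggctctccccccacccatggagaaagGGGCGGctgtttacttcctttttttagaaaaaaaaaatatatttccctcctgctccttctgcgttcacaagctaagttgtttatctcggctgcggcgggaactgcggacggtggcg
PPARD, chr6:35342308-35342607, plus strand: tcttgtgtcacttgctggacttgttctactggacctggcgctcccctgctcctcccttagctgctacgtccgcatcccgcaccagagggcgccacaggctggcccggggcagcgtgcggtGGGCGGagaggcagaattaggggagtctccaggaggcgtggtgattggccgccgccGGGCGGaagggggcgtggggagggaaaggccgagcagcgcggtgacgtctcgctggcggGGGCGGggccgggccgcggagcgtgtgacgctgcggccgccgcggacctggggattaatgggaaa
NR1H4, chr12:100503110-100503409, plus strand: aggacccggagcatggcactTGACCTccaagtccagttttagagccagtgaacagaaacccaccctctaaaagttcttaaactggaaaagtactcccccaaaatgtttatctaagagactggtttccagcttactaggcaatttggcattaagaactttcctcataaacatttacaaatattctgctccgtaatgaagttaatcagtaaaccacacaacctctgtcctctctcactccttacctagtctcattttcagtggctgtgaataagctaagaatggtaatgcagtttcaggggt

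The windows differ in composition. The downstream NR3C1 window is 61.3% GC with 27 CpG sites, and the upstream window of the same gene is 34.7% GC with 0 CpG sites. PPARD (70.3% GC) and the upstream RARB window (76.3%) hold 3 GC boxes each. The downstream RARB window holds the direct repeat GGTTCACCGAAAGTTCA, whose first base lies 53 bases before the start. It was the only member window, of 94, with any of the repeats of 5-base spacing, which were found in 17 of 22132 windows of protein-coding genes (0.0768%); repeats with spacers of 1, 2 or 4 bases were in 0 of 94. The plain hexamer AGGTCA was in 15 of the 94 member windows (16.0%) and in 11.9% of all windows. The GC box was in 47 member windows and in 56.3% of all windows, the E-box in 8.51% and 8.34%, the ETS core in 16.0% and 21.2%, and TATAAA in 7.45% and 9.46%. AGGTCA with itself repeated exactly at these spacings was in 0 member windows. The variant hexamers were added after this exact search, and the RARB repeat is made of variants, GGTTCA and AGTTCA. The share of 5-base repeats over all windows therefore does not measure how unusual the RARB repeat is. The windows of 1 gene can overlap, so they are not independent.

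At gene ends, most receptor genes had a peak in both lines. A gene was given a gene end peak if a peak overlapped the 1 kb on either side of either end of the gene. Of the 44 genes, 26 had such a peak in both lines, where the share over all protein-coding genes was 60.7%. A further 8 had one in 293T only, beside 9.09% of all genes, and 3 in J76 only, beside 3.94%. The other 7 had none in either line, beside 26.3% of all genes. As shares of the 44, the genes with peaks in both lines make 59.1%, the 293T-only genes 18.2%, the J76-only genes 6.82% and those without a peak 15.9%. In the full lists the share in both lines is thus near that of all genes, and the share in 293T only is larger. With the same number of peaks taken from each list, 293T-only members numbered 5, and with −log10 q of at least 10 the J76-only members numbered 0. Shares over all genes are not given at these settings, so the larger 293T-only share is a reading of the full lists alone. In 25 of the 26 genes with peaks in both lines, a peak of J76 overlapped a peak of 293T, and the exception was NR2F1.

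**Figure D1:**
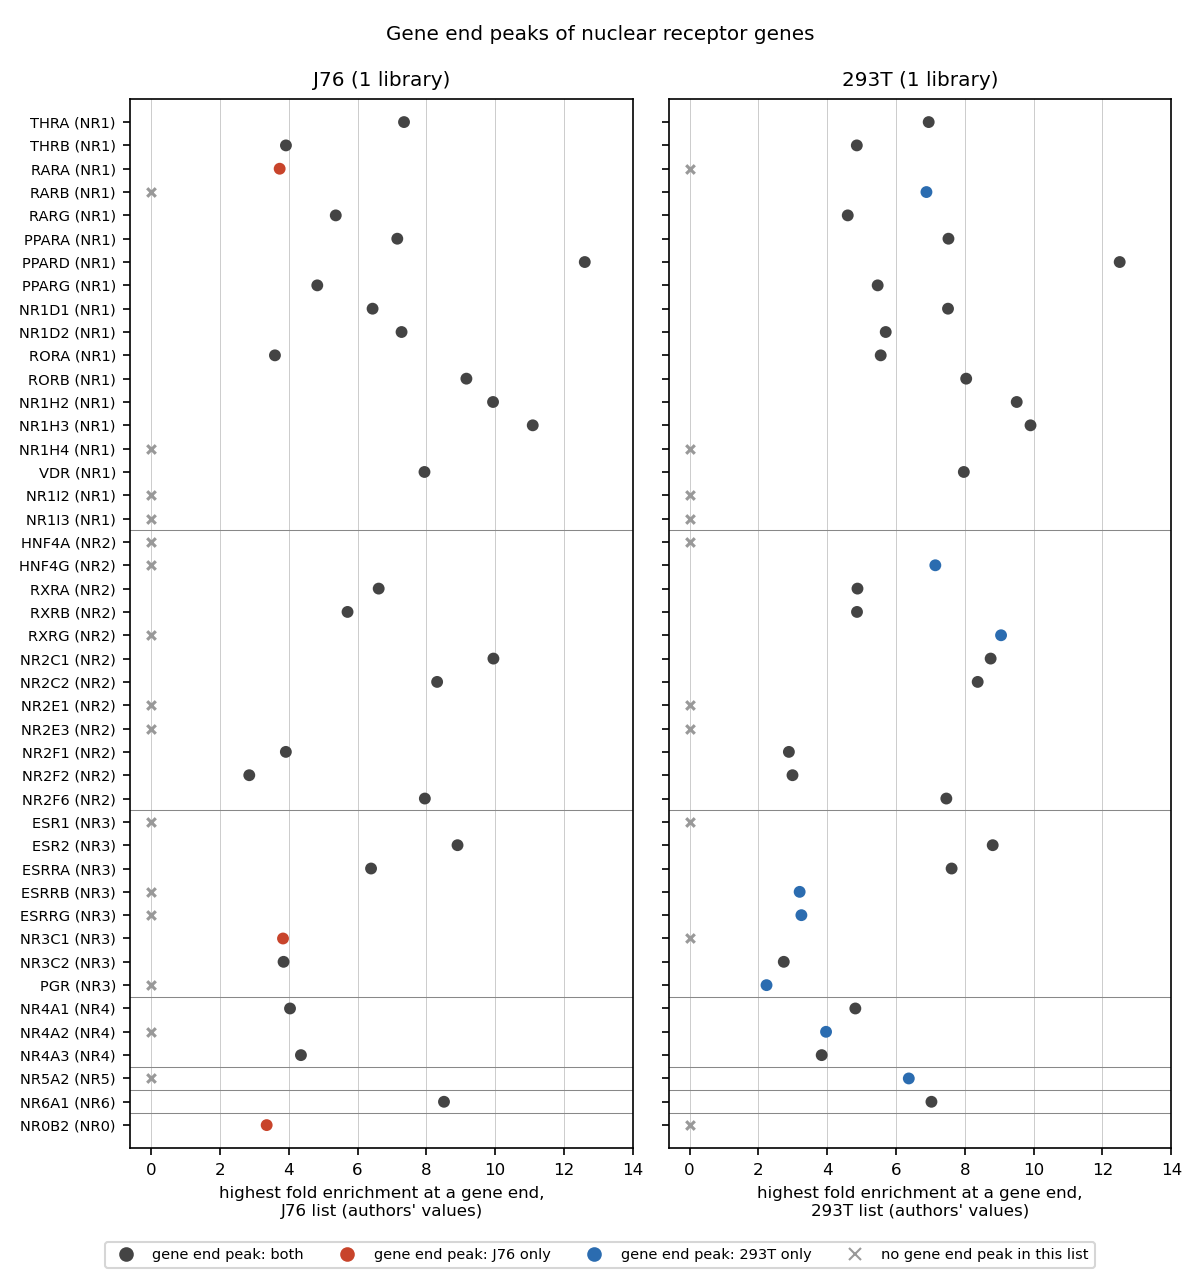
Highest fold enrichment at a gene end for each of the 44 genes, in the J76 list on the left and in the 293T list on the right, grouped by receptor subfamily with lines between them. Each point is 1 gene in 1 library, crosses at 0 mark genes with no gene end peak in that list, and PPARD is the point farthest to the right in both panels (12.6 and 12.5).

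The strength of the peaks was modest compared with other genes. The 29 members with a gene end peak in J76 had folds from 2.85 to 12.6 with a median of 6.44, and the median over all 12901 genes with such a peak was 8.45. In 293T the 34 members ranged from 2.24 to 12.5 with a median of 6.63, and the median over 13931 genes was 7.79. By subfamily, NR1 had 13 of 18 genes with a peak in both lines, NR2 had 7 of 12, NR3 had 3 of 8, NR4 had 2 of 3, and NR6A1 had one too, while the only NR5 and NR0 members, NR5A2 and NR0B2, had a peak in 1 line. By gene ends, the steroid and estrogen-related receptors of NR3 were the subfamily of several members with the lowest share in both lines (37.5%), on 8 genes. This rank did not hold by any annotated start, a reading given below. There NR3C1 and ESR1 also counted as both, and ESR2, ESRRA and NR3C2 stayed so.

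Among receptors for thyroid hormone and retinoids, the alpha and the beta genes lie in paralogous neighbourhoods, with THRA, NR1D1 and RARA on chromosome 17 and THRB, NR1D2 and RARB on chromosome 3. THRA, the alpha thyroid hormone receptor, had a peak over its start in both lines, with a fold of 7.35 in J76 and 6.95 in 293T. NR1D1, a heme-binding repressor of the circadian clock whose 3′ end overlaps that of THRA, had 6.44 in J76 and 7.51 in 293T. NR1D2, its paralog, had broad peaks of 1735 bp in J76 (fold 7.28) and 1814 bp in 293T (5.70). Both clock repressors thus had a start peak in each list.

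THRB and RARB, the beta receptors, differed between the lists at their starts. At THRB, 293T had a peak of 2187 bp from 24493972 to 24496158 on chromosome 3 (fold 4.86, −log10 q 59.5) that covers both annotated starts. J76 had no peak there, and its gene end peak was one upstream, from 24496476 to 24496880 (3.92, −log10 q 5.82), which a small 293T peak overlapped, so the gene counts as having a peak in both lines although its starts were covered in 293T only. RARB, the beta retinoic acid receptor and itself a well-known retinoic acid target, had a 293T peak from 24829010 to 24830671 (6.88, −log10 q 55.8) over its most upstream start and no gene end peak in J76. Another 293T peak from 25427777 to 25429897 (4.90, −log10 q 58.0) lay over the downstream start that carries the direct repeat shown above, 599 kb into the gene, and the starts at 511 kb and 629 kb had none. J76 had no peak over any of the 4 RARB starts. In J76 the peak nearest to an end of RARB lay 3569 bases inside the 3′ end (fold 3.70).

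RARA, the alpha retinoic acid receptor, was counted as J76 only, but the peak concerned lies beyond its 3′ end, from 40358589 to 40358793 on chromosome 17 (fold 3.74, −log10 q 9.87), 946 bases from the gene and thus just inside the 1 kb limit. At the starts of RARA no peak was found in J76 only. The most upstream start had no peak in either line. The middle start, 9.07 kb further on, had one in each list (folds of 6.87 for J76 and 8.89 for 293T). The window of the third, at 33.0 kb, was reached by a peak in 293T only (6.12, −log10 q 21.3). That 293T peak is shared, since a J76 peak from 40341188 to 40341658 (5.92, −log10 q 17.3) overlaps it but ends before the window. RARG, the gamma receptor, had a start peak in both lines (5.37 and 4.60).

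The RXR genes supply the shared partner. RXRA, the most widely expressed of them, had a gene end peak of fold 6.61 in J76 and 4.88 in 293T. RXRB had 5.71 and 4.87, and lies within 2 kb of ends of COL11A2 and SLC39A7. RXRG, known from muscle and nervous tissue, had a 293T peak from 165444621 to 165445390 on chromosome 1 (fold 9.05, −log10 q 50.9), and no gene end peak in J76. This was the highest fold among members with a gene end peak in 1 line only. RXRG thus stood apart from RXRA and RXRB, which had a peak in both.

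Receptors for fatty acids and oxysterols had gene end peaks in both lines, with the lowest folds at PPARG. PPARD, the broadly expressed fatty acid receptor, had the highest fold of all members in each list, 12.6 in J76 (−log10 q 89.6, chromosome 6, 35342216 to 35342939) and 12.5 in 293T (74.1, 35342239 to 35343176), above 97.0% and 96.7% of genes with a gene end peak in that list. PPARA, the receptor that drives fatty acid oxidation in liver, had 7.15 and 7.52. PPARG, the adipocyte receptor, had a 216 bp J76 peak of fold 4.83 and a 1689 bp 293T peak of 5.47 from 12287429 to 12289117 on chromosome 3. Only the 293T peak reached an annotated start window, the pair of starts 1.69 kb downstream of the most upstream one. The oxysterol receptors control cholesterol efflux. NR1H2 had a start peak of 8.71 in J76 and 9.21 in 293T, NR1H3 had one of 11.1 and 9.91, and both also had a peak at the 3′ end, where another gene begins or ends within 2 kb. NR1H3 had in addition a weak 293T-only peak (3.43) over a start pair 9.41 kb downstream.

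The vitamin D receptor VDR had a gene end peak of 7.94 in J76 and 7.97 in 293T. The ROR genes, which act in the clock and in lymphoid and neural development, both had peaks in both lines. RORB had strong ones of 9.16 and 8.04, each about as broad as the NR1D2 peaks (2028 and 1958 bp). RORA had weak ones of 3.60 (−log10 q 4.64) and 5.56 (13.7), and its annotated start in the promoter table lies elsewhere in the gene and had no peak in either line.

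The 7 genes without a gene end peak in either line were NR1H4, NR1I2, NR1I3, HNF4A, NR2E1, NR2E3 and ESR1. NR1H4 is the bile acid receptor, NR1I2 and NR1I3 are the xenobiotic receptors of liver and gut, and HNF4A is the hepatocyte regulator, also active in kidney tubules. NR2E1 acts in neural stem cells and NR2E3 in photoreceptors, and ESR1 encodes estrogen receptor alpha. NR1I2 had a peak in both lines 2529 bases beyond its 3′ end (5.62 in J76 and 4.13 in 293T), and NR1I3 had one in both within 2 kb (3.88 and 3.73), just outside the window. HNF4A had its nearest peak 14611 bases from a gene end in J76 and 26742 in 293T, and neither of its 2 start groups was covered. At ESR1 weak peaks were present at internal starts, 1 in J76 only (3.07, −log10 q 2.58) at 151 kb and 1 in 293T only (2.62, 2.30) at 152 kb from the most upstream start.

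HNF4G, the paralog of HNF4A, had a 293T peak of 1608 bp on chromosome 8 from 75406966 to 75408573 (fold 7.14, −log10 q 50.4) and none at its ends in J76, where the nearest peak lay 48018 bases away. Of the other orphan receptors of NR2, NR2C1 and NR2C2 (testicular receptors) had strong start peaks in both lines. NR2C1 had the highest folds of NR2 genes with a peak in both, 9.95 in J76 (−log10 q 92.4, chromosome 12, 95072686 to 95073842) and 8.75 in 293T (63.8, 95072640 to 95073843). NR2C2 had 8.31 in J76 and 8.37 in 293T. NR2F6 had 7.95 and 7.46. These genes contrast with NR2F1 and NR2F2, whose gene end folds were among the lowest in both lists.

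NR2F1 and NR2F2 encode COUP-TFI and COUP-TFII, regulators of neural, vascular and mesenchymal development. NR2F1 had a J76 peak from 93584054 to 93584800 on chromosome 5 (fold 3.92, −log10 q 27.8) and a 293T peak from 93582722 to 93583451 (2.89, −log10 q 28.9), which do not overlap: the 293T peak covers the annotated start and the J76 peak begins inside the gene. NR2F2 had overlapping peaks at its 5′ end, of 2.85 in J76 and 2.99 in 293T. The −log10 q was 9.09 for the J76 peak of NR2F2 and 20.8 for its 293T peak. Among genes with a gene end peak in J76, 5.59% had a fold below that of NR2F1 and 0.58% one below that of NR2F2; in 293T the shares were 1.06% and 1.40%.

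The steroid receptors and their relatives in NR3 fell into all 4 classes. ESR2, estrogen receptor beta, had the highest folds of the subfamily, 8.90 in J76 (−log10 q 96.1, chromosome 14, 64337870 to 64339356) and 8.81 in 293T (85.5, 64337792 to 64339356), both over its most upstream starts, and an end of SYNE2 lies within 2 kb of the gene. ESRRA, an orphan receptor that controls mitochondrial genes, had 6.39 and 7.62 and is crowded by CATSPERZ, PRDX5 and TRMT112. NR3C2, the mineralocorticoid receptor, had a wide and shallow start peak in both lines (3.85 and 2.74), and a stronger one over a start 2.91 kb downstream, of 6.66 in J76 and 4.43 in 293T. So ESR2, ESRRA and NR3C2 had starts covered in both lines.

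NR3C1 encodes the glucocorticoid receptor, through which glucocorticoids kill lymphoid leukemia cells. At its gene ends it was J76 only, from small peaks on chromosome 5 at 143435294 to 143435556 (fold 3.83, −log10 q 5.88) and 143434650 to 143434955 (3.25, 3.89), over the most upstream pair of annotated starts. The CpG-rich group of 5 starts 30.2 kb downstream was covered by a large peak in both lines, from 143402752 to 143405792 in J76 (5.11, −log10 q 66.2) and from 143402913 to 143405529 in 293T (3.57, 42.4). The difference between the lists at NR3C1 was thus at the upstream, CpG-poor starts printed above, where 293T had its nearest peak 2461 bases from the gene end.

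ESRRB, ESRRG and PGR were 293T only, and all 3 lost that class with −log10 q of at least 5 and with lists of equal length. ESRRB, known from pluripotent cells and the inner ear, had 3.20 (−log10 q 3.32, chromosome 14, 76311241 to 76311848) near its 5′ end. A stronger 293T-only peak, from 76375960 to 76376564 (7.45, −log10 q 25.9), lay over the start 65.4 kb downstream. ESRRG, its relative in kidney, heart and brain, had 3.25 (−log10 q 4.41, chromosome 1, 216502528 to 216502780) beyond its 3′ end. Of its 6 start groups 3 were covered in 293T only, the strongest 414 kb downstream of the first, from 216722721 to 216723968 (6.32, −log10 q 57.8). In each gene the strongest peak over an internal start thus had a higher 293T fold than the gene end peak. PGR, the progesterone receptor, had the weakest gene end peak of the 34 members with one in 293T, 2.24 (−log10 q 2.73, chromosome 11, 101129585 to 101129914). A stronger 293T-only peak lay inside PGR, from 101127243 to 101128657 (4.63, −log10 q 19.5). Its summit was 2.26 kb from the gene end, and the peak reached neither the 1 kb limit nor a start window.

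The NR4A genes are immediate early genes, and in T cells they are induced by signals of the T cell receptor. NR4A1 had gene end peaks of 4.04 in J76 and 4.82 in 293T (−log10 q 21.0, chromosome 12, 52023235 to 52024075), which begin 120 and 403 bases into the gene and miss the annotated start windows. NR4A3 had 4.35 in J76 (−log10 q 56.2, chromosome 9, 99821185 to 99822366) and 3.84 in 293T (54.4, 99821017 to 99822378). NR4A2 counted as 293T only, with 3.97 (−log10 q 55.2, chromosome 2, 156331981 to 156333428) and an adjacent peak of 3.69. J76 had a peak of 6.82 (−log10 q 35.7, 156333837 to 156335088) that overlapped the adjacent one and lay 1116 bases from the gene, outside the 1 kb limit. At NR4A2 the class therefore turns on a distance of about the window's size, and with a window of 2.5 kb the gene was no longer 293T only.

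Of the last 3 members, NR5A2, the LRH-1 receptor of liver, pancreas and early embryo, had a 293T peak from 200028685 to 200029595 on chromosome 1 (fold 6.37, −log10 q 32.4), 975 bases inside its 5′ end. It is just within the 1 kb limit. NR6A1, the germ cell nuclear factor, had a start peak of 8.51 in J76 (−log10 q 66.9, chromosome 9, 124770572 to 124771812) and 7.03 in 293T (67.9, 124770529 to 124772271). NR0B2, the SHP corepressor that lacks a DNA-binding domain, had a weak J76-only peak (3.36, −log10 q 3.91, chromosome 1, 26913378 to 26913596). NR0B2 lost its class with −log10 q of at least 5, and RARA and NR3C1 lost theirs with at least 10.

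Because many receptor genes use several promoters, the classes were also read at each annotated start. Start windows of a gene within 1 kb of each other were joined into 1 group, which gave 71 start groups for the 39 genes. Of these, 22 had a peak in both lines (53.0% over the start groups of all protein-coding genes) and 31 in neither (34.4%). Another 16 were covered in 293T only (9.22%) and 2 in J76 only (3.34%). As shares of the 71 groups these are 31.0% in both, 43.7% in neither, 22.5% for 293T only and 2.82% for J76 only, so receptor starts had a lower share in both lines and a higher share in 293T only than all starts did. A gene with many starts weighs more in these shares. Of the 18 receptor genes with 2 or more start groups, 14 had groups of more than 1 class, beside 1579 of 2254 protein-coding genes (70.1%).

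**Figure D2:**
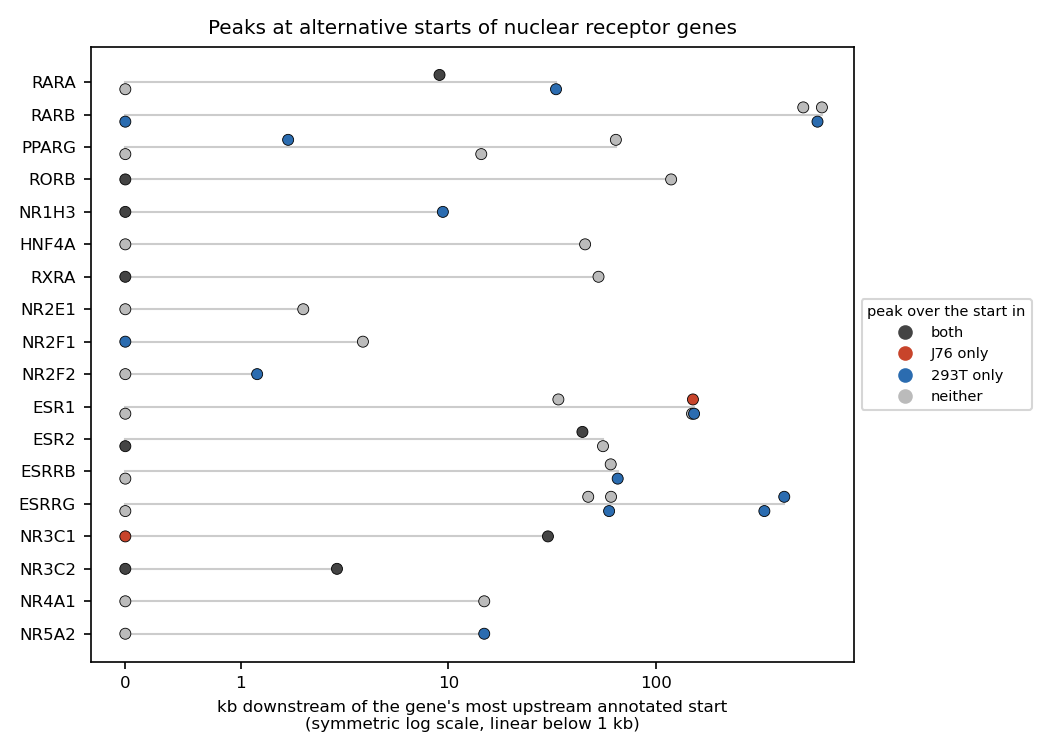
Start groups of the 18 receptor genes that have 2 or more, placed by their distance in kb from the gene's most upstream annotated start (symmetric log axis) and coloured by the lines with a peak over the start. RARA, RARB, PPARG, NR1H3, NR2F1, NR2F2, ESR1, ESRRB, ESRRG and NR5A2 have a start covered in 293T only. At RARA and PPARG a J76 peak overlaps that 293T peak outside the start window. NR3C1 and ESR1 have the only starts covered in J76 only.

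Taking a gene as covered where a peak overlapped any of its start windows, RARA, NR3C1 and ESR1 moved to both lines and THRB, PPARG, NR2F1 and NR2F2 to 293T only, while RORA and NR4A1 moved to neither. By this count 21 of the 39 genes were covered in both lines (60.8% over all 15812 protein-coding genes with a start window) and 8 in neither (27.9%). The others were 10 in 293T only (8.46%), and 0 were J76 only (2.92%). Several of these moves depend on the window or on weak peaks. With 1 kb on either side of each start, the 293T-only count fell to 7, and no share over all genes is given for this setting. THRB, PPARG, NR2F1 and NR4A1 then kept their gene end class. NR2F2 stayed 293T only, and its peak in the 300-base window had a fold of 1.63 (−log10 q 3.86). ESR1 was counted from weak peaks at different starts, 3.07 for J76 and 2.62 for 293T. Each of these start readings was added after the data were seen.

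The start groups also differed in base composition. Groups with a peak in both lines had a median GC content of 68.5% and a median observed over expected CpG ratio of 0.883, close to the 66.7% and 0.861 of all such start groups. Groups with a peak in neither had 48.0% and 0.318, beside 51.7% and 0.264. The 16 groups covered in 293T only lay between, at 57.8% and 0.535, beside 63.0% and 0.674 over all genes. The pair covered in J76 only, at NR3C1 and ESR1, had a median of 46.3% and 0.277. NR5A2 and the upstream NR3C1 starts show the CpG-poor side, with CpG ratios of 0 at the most upstream NR5A2 start and 0.114 at NR3C1, and RXRA (1.25) and NR2C2 (1.14) the CpG-rich side.

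**Figure D3:**
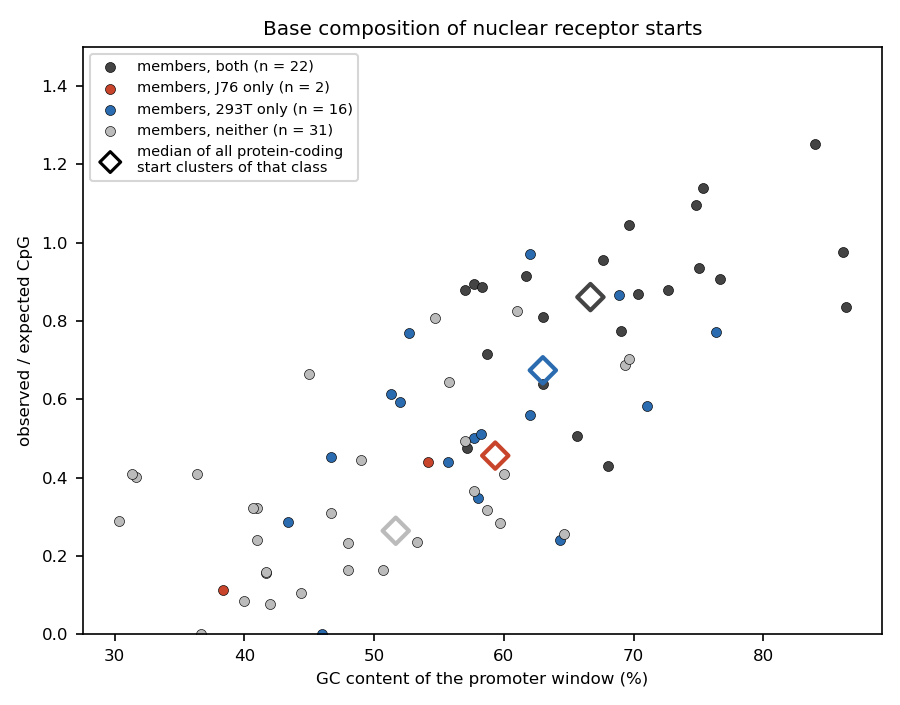
GC content in percent against the observed over expected CpG ratio for the 71 receptor start groups, coloured by the lines with a peak, with diamonds at the medians of all protein-coding start groups of each class. Groups covered in both lines (median 68.5% GC) lie to the upper right and uncovered groups (48.0%) to the lower left, with overlap between the classes.

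Away from gene ends, the surroundings of receptor genes held more peaks found in 293T only than in J76 only. A distal peak is one whose summit lies over 1 kb from every protein-coding gene end and within 50 kb of an end of a receptor gene, and it is line-only where no peak of the other list overlaps it. There were 73 such J76 peaks and 153 such 293T peaks, a ratio of 2.10. Within 50 kb of the ends of any protein-coding gene the ratio was 1.73 (14480 and 25035 peaks), and over all line-only distal peaks of the lists 1.93 (26678 and 51392). Of the peaks near receptor genes, 2 of J76 and 3 of 293T also reach into a 1 kb gene end window and are counted in both places, such as the NR5A2 gene end peak and the J76 peak at NR2F1. The median receptor gene had 1 J76-only and 3 293T-only peaks, and the median over all genes was 1 and 2. More 293T-only peaks were found at 24 of 44 genes (54.5%, beside 49.0% of all genes) and more J76-only peaks at 15 (34.1%, beside 30.5%). At least 5 293T-only peaks were found at 16 genes (36.4%, beside 15.6%) and at least 5 J76-only peaks at 2 (4.55%, beside 5.27%). Receptor genes are longer, with a median of 58424 bp beside 24170 bp over all genes. The 50 kb windows at the ends of a short gene overlap, so more sequence is searched around a longer gene. The part of gene length in these shares was not tested. RARG and NR0B2 had none of either kind, where the share over all genes was 8.64%.

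The excess was uneven over the family. The 8 NR3 genes had 12 J76-only and 38 293T-only peaks, the 12 NR2 genes 19 and 44, the 18 NR1 genes 29 and 44, and the 3 NR4 genes 9 and 9. Median gene length was 174321 bp in NR3, 33496 bp in NR2, 55961 bp in NR1 and 36672 bp in NR4. Of the 153 peaks of 293T, 62 lay inside a receptor gene, 29 inside another gene and 62 between genes, and for J76 the numbers were 28, 16 and 29. Their median fold was 3.73 in J76 and 3.76 in 293T, near the 3.95 and 3.76 of all line-only distal peaks. With −log10 q of at least 10 there were 23 J76-only and 64 293T-only peaks. With the same number of peaks taken from each list there were 78 and 100, a smaller difference than in the full lists. Counts over all genes are not given at these settings.

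**Figure D4:**
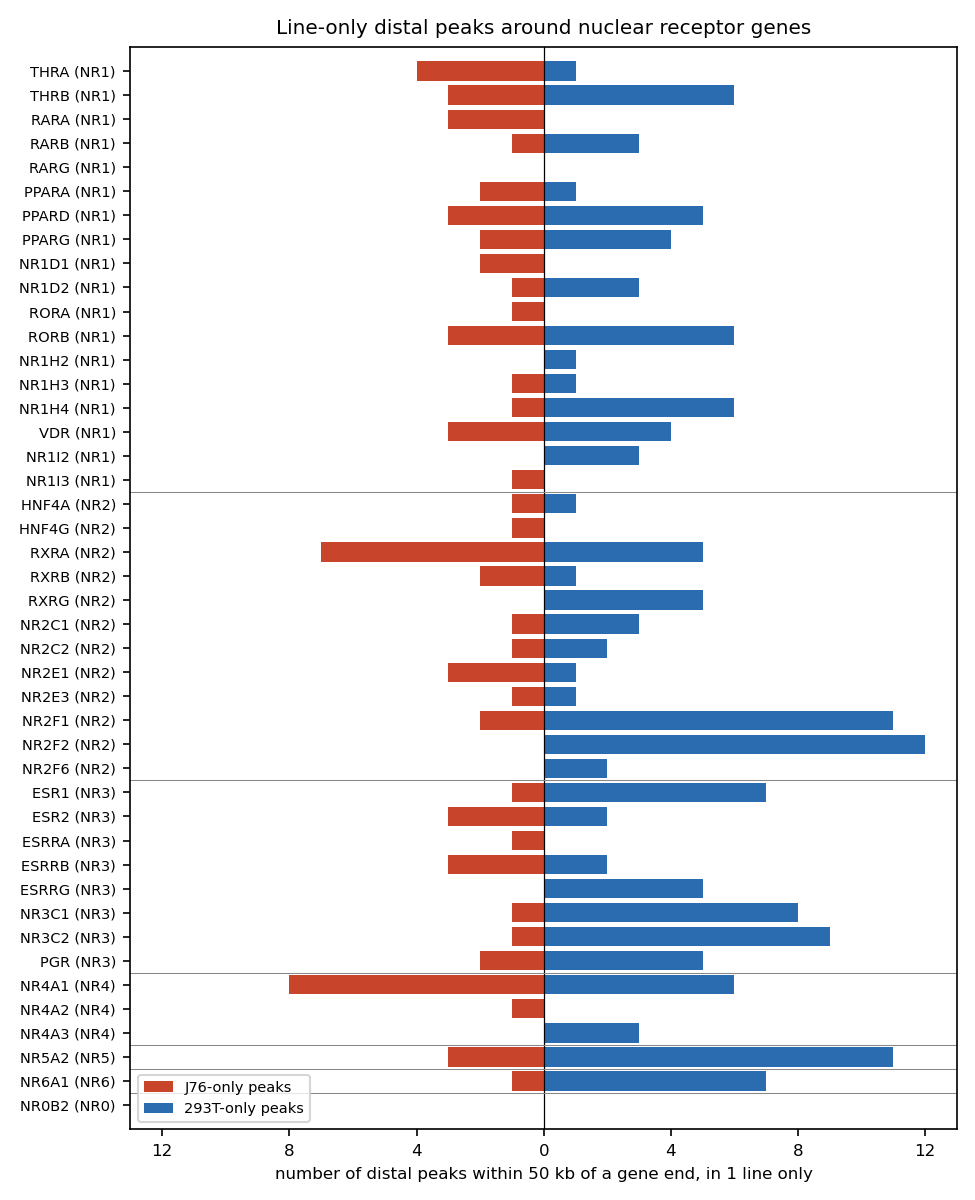
Number of line-only distal peaks within 50 kb of an end of each receptor gene, J76-only to the left and 293T-only to the right, with lines between subfamilies. NR2F2 (0 and 12), NR2F1 (2 and 11) and NR5A2 (3 and 11) have the longest bars to the right, and NR4A1 (8 and 6) and RXRA (7 and 5) the longest to the left.

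The genes with the largest differences were the COUP-TF pair, NR5A2 and the corticosteroid receptors. NR2F2 had 0 J76-only and 12 293T-only distal peaks. The strongest lay 8.68 kb before the gene on chromosome 15, from 96317067 to 96317534 (fold 8.53, −log10 q 34.2), and the next 22.2 kb before it, from 96303373 to 96304067 (6.33, 22.4). The weakest of the 12 had a fold of 1.59. NR2F1 had 2 and 11, with 293T folds from 1.84 to 4.59. Both genes also had shared distal peaks, 2 at NR2F2 and 5 at NR2F1. The strongest shared one at NR2F1, from 93620510 to 93621870 in 293T, had a fold of 8.27 there and 7.51 in J76. The COUP-TF genes were thus not without distal peaks in J76, but their line-only ones were nearly all in 293T.

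NR5A2 had 3 and 11 distal peaks, and 7 of the 11, its gene end peak among them, lay inside the gene. The strongest was at 200053515 to 200054100 (6.56, −log10 q 19.2). In J76 the strongest, from 200185720 to 200186036 (6.41, 16.6), lay 8.44 kb beyond the 3′ end. NR3C2 had 1 and 9, with folds from 1.88 to 3.99 in 293T, and 5 of those 9 lay in the neighbouring gene ARHGAP10. NR3C1 had 1 and 8, with 293T folds from 3.10 to 3.99. The single J76-only peak near NR3C1, from 143229414 to 143230834 (6.08, −log10 q 35.2), was 1421 bp wide, and with −log10 q of at least 10 the difference at NR3C1 turned to 1 more in J76. Counted over the whole gene body as well, NR3C2 had 1 and 22, ESRRG 1 and 23, THRB 4 and 21, RARB 6 and 21, RORB 3 and 16, and RORA went the other way with 6 and 0. These are long genes, from 195843 bp (RORB) to 768612 bp (RARB), beside a median of 58424 bp over the members. A longer body holds more room for peaks, and no gene body counts over all genes are given here.

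**Figure D5:**
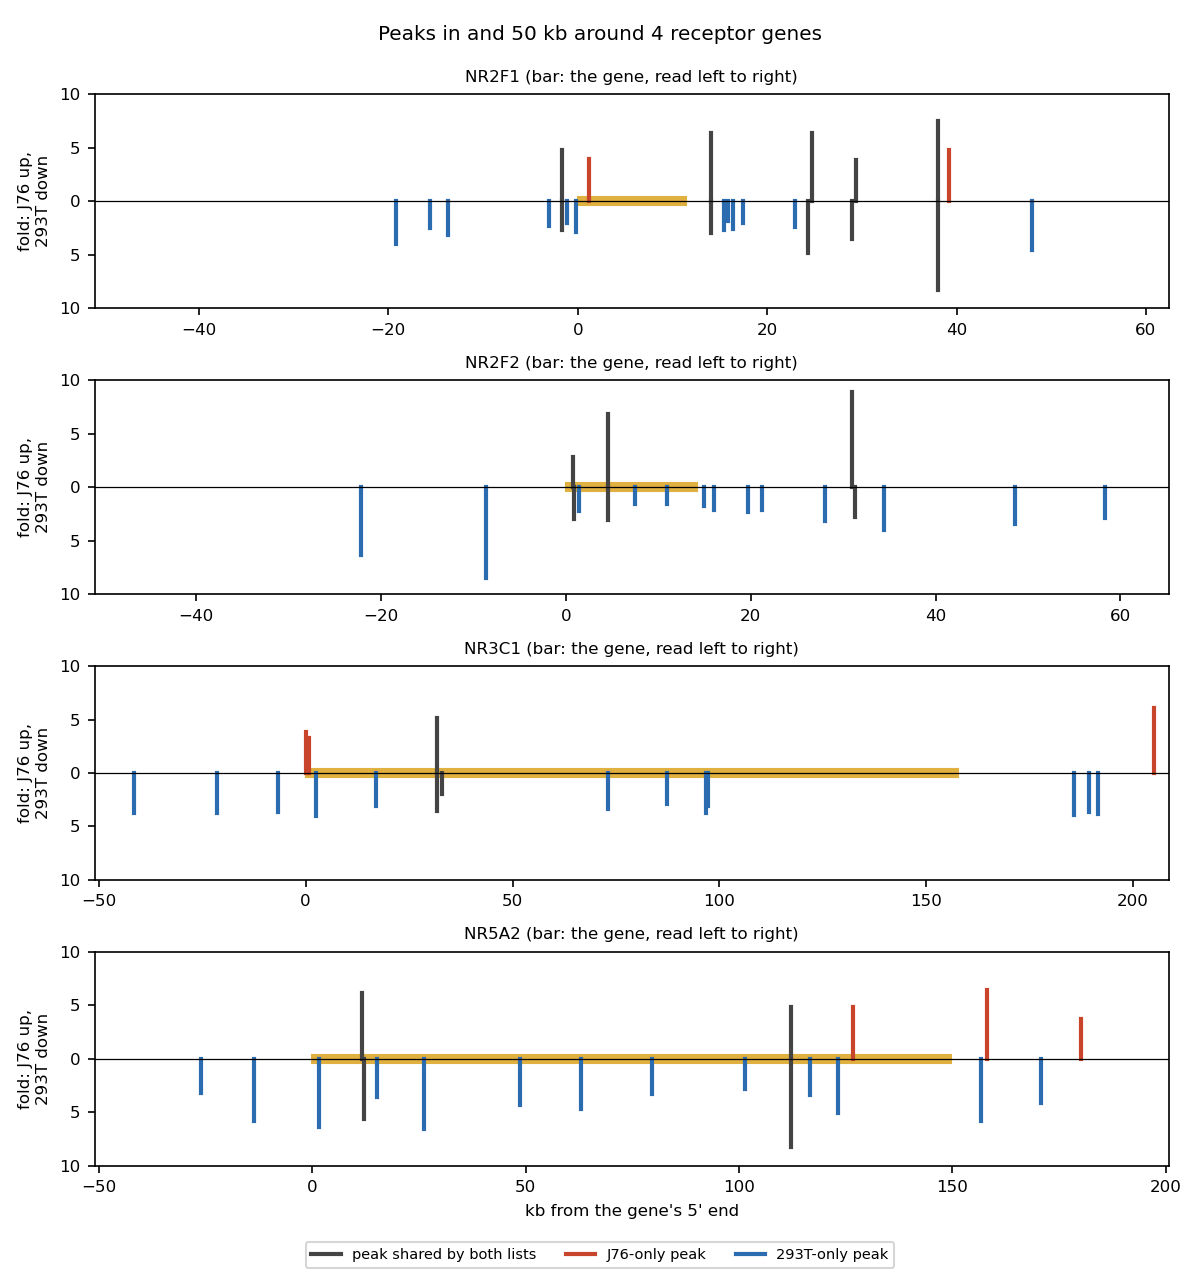
Peaks within and up to 50 kb around NR2F1, NR2F2, NR3C1 and NR5A2, by distance in kb from the gene's 5′ end, with the authors' fold drawn upward for J76 and downward for 293T and the gene as a bar. 293T-only peaks are spread along each locus, such as the one of fold 8.53 before NR2F2, and NR3C1 has a shared peak 30.2 kb downstream of its upstream starts.

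The strongest line-only distal peaks lay near other members. In 293T the top was 24.01 kb from PPARD, inside DEF6 on chromosome 6, from 35318041 to 35318973 (fold 13.3, −log10 q 64.4). The next was 32.0 kb from NR2E1, from 108133573 to 108134300 (11.3, 81.2), and the one after it inside NR1H4 on chromosome 12, from 100554621 to 100554953 (8.85, 28.1). Neither NR2E1 nor NR1H4 had a gene end peak. In J76 the top was 10.1 kb from PPARD, from 35332236 to 35332616 (10.6, −log10 q 43.3), then came one 44.2 kb from NR1I3, inside ADAMTS4 on chromosome 1, from 161185270 to 161185976 (9.93, 51.97), and one inside PPARA on chromosome 22, from 46239274 to 46240495 (7.92, 43.96). PPARD thus had the strongest line-only distal peak in each list. NR4A1 (8 J76-only and 6 293T-only) and RXRA (7 and 5) were the members with the most J76-only peaks, and the strongest of these were 5.94 inside ACVR1B for NR4A1 and 5.06 inside RXRA.

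The number of all peaks in the wider region moved with these counts. Over the 10 Mb centred on each gene, the median ratio of 293T to J76 peaks was 1.76 for the 24 genes with more 293T-only distal peaks (range 0.885 to 3.34), 0.998 for the 15 with more J76-only peaks (0.670 to 2.65) and 1.20 over all genes. The ratio was 2.04 around NR2F2, 1.94 around NR2F1, 1.72 around NR5A2, 1.97 around NR3C2 and 2.06 around NR3C1. It was highest around ESRRG (3.34) and RARB (2.91). The neighbourhood of NR1D2, THRB and RARB on chromosome 3 had ratios from 2.57 to 2.91, and that of THRA, NR1D1 and RARA on chromosome 17 from 0.900 to 0.912. The part of the regional ratio in the distal counts was not tested.

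Other genes of the pathway were read the same way from 4 lists. Of 17 coregulators, 15 had a gene end peak in both lines and none in 1 line only, with NCOA2 and TBL1XR1 in neither. MED1, the Mediator subunit that contacts receptors, had 11.3 in J76 and 10.6 in 293T, and CARM1, an arginine methyltransferase coactivator, had 10.1 and 9.89. All 8 genes in the list of steroid receptor chaperones had a peak in both, with ST13 at 9.89 and 8.22 and STIP1 at 8.67 and 6.35. The share in both lines was 88.2% for the coregulators and 100% for the chaperones, beside 60.7% of all genes, on lists of 17 and 8 genes.

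Genes of ligand supply and of target responses were more divided. Of 18 genes for making, moving or breaking down ligands, 6 had a peak in both lines and 6 in neither, with 5 in 293T only and 1 in J76 only. Those in 293T only included ALDH1A3, which makes retinoic acid (7.18), and DIO3, which inactivates thyroid hormone (6.76). CH25H, which makes an oxysterol, was J76 only (7.14). CYP26A1, which breaks down retinoic acid, had 8.40 in J76 and 5.65 in 293T. Of 16 known receptor targets, 7 had a peak in both and 4 in neither, with 3 in 293T only and 2 in J76 only. In 293T only were PDK4 (8.33), GREB1 (7.01) and KLF9 (3.09), targets of PPARs, estrogen receptor and glucocorticoid or thyroid hormone receptors. ANGPTL4 (7.57) and CPT1A (2.56), both PPAR targets, were J76 only, and the clock genes PER1 (9.93 and 9.20) and BMAL1 (9.26 and 10.8) had a peak in both. Over the 4 lists, 36 of 59 genes had a peak in both lines (61.0%, beside 60.7% of all genes) and 12 in neither (20.3%, beside 26.3%), with 8 in 293T only (13.6%, beside 9.09%) and 3 in J76 only (5.08%, beside 3.94%). The share in both lines is near that of all genes.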

How the data were processed

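Each line gave 1 ATAC-seq library, for which 50000 cells went into the transposase reaction, per the labels' protocols. The submitters' processing notes list Bowtie2 and MACS2. Versions, settings, duplicate removal and the genome build are not given in the sources used; the contig names belong to GRCh38. The authors deposited 1 peak list per library, with a fold enrichment (a linear ratio over background), −log10 p and −log10 q values, and an integer score, which is the −log10 q times 10 without its decimals in 100% of J76 and 99.996% of 293T peaks. The deposited lists carry the summit position as another column, and no counts or coverage.

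Gene positions, start windows and sequences came from RefSeq tables of GRCh38.p14, on autosomes and chromosome X. Peaks were intersected with gene ends, start windows and distal windows in Python 3.11.15 (pandas 2.3.3, numpy 2.4.6, matplotlib 3.10.9), with an overlap of at least 1 bp counted as shared. The counting was tested on simulated data. With 1 library per line no test between lines was made. Members and lists were chosen with earlier results of these data known. Values in full are given for members with a gene end peak in 1 line only, the highest fold per subfamily among those with a peak in both, the 5 largest differences in distal counts and the 3 strongest line-only distal peaks per line; other members are given by fold, range or count. For the lists, up to 3 genes in 1 line only per line and up to 2 in both are named, by fold, and some are not reported here; sequences follow the same rule with at most 3, 2 and 2 genes by class. The relaxed direct repeats were added after the exact ones had been searched. Alternatives were thresholds on −log10 q of 5 and 10, equal list lengths, other window sizes, other overlap rules, the 5′ end only, leaving out genes that have a neighbour's end within 2 kb, and any annotated start.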

Additional observations from a re-analysis of the deposited data

How the results depend on the processing

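There was 1 library per line, the depth is unknown, and weak peaks decide many classes. No paired analysis was possible because the lines have 1 library each and no replicate numbers. Of the recomputed counts of the main comparisons, 53 stayed within 1.5 times and 19 did not. With −log10 q of at least 5, receptor genes in neither line numbered 11 and J76-only distal peaks 48. With at least 10, neither was 13, J76-only genes 0, and distal peaks 23 in J76 and 64 in 293T. With equal list lengths, 293T-only genes numbered 5, and distal peaks 78 in J76 only and 100 in 293T only. Of the 33 genes without a neighbour's end within 2 kb, 17 had a peak in both lines. By the 5′ end only (39 genes), J76-only genes numbered 1 and 293T-only genes 5; by any annotated start, within 1 kb or in the 300-base window, both chosen after seeing the data, J76-only genes numbered 0. Line-only distal peaks in J76 and 293T numbered 33 and 77 within 20 kb and 122 and 280 within 100 kb, and 250 in 293T with gene bodies added. With a 2.5 kb window the 4 pathway lists had 5 genes in 293T only. Apart from the 300-base start window, shares over all genes are not given at these settings. The distal difference, J76-only minus 293T-only, ranged from -18 to -6 at NR2F2, -11 to -3 at NR2F1, -15 to -3 at NR5A2 and -21 to -1 at NR3C2. At NR3C1 it ranged from -13 to 1 and turned to 1 with −log10 q of at least 10; fewer peaks passed there. For the rest of these changes the cause was not tested beyond the change in peaks, genes or distances counted.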
